A study of Drosophila melanogaster with 4 samples.

Results

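Transfer RNA (tRNA) genes were examined as a group of loci in a map of Notch tagged with green fluorescent protein (GFP) on the chromatin of whole *Drosophila melanogaster* larvae. The members are the genes whose symbol starts with "tRNA:" on the chromosome arms 2L, 3R and X of a release 6 gene table, with mitochondrial tRNA genes left out. There were 146 of them, of 295 such genes in the whole table, and they comprised 144 genes annotated as tRNA and 2 as tRNA pseudogenes. The other 149 lie on other arms and were not analysed here. The arms carried 41 members on 2L, 79 on 3R and 26 on X.

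Per the labels, the material was the strain Notch-GFP at stage L3, collected as wandering larvae, with the genotype PBac{y[+]-attP-3B}VK00033, a transgene described as the Notch genomic coding region, and unknown sex. The growth text of the labels names y; bw cn sp flies, so the labels do not settle the full background of the larvae. Growth was at 25 °C, fixation took 15 min in 1.8% formaldehyde, and 2 ChIP libraries (rabbit antibody ab290 to GFP) and 2 input libraries were sequenced. All 4 libraries share strain, transgene and stage, and the labels give no library from untagged larvae or from a single tissue. The only measurement is 1 list of 4198 called peaks, 2235 of them on the 3 arms, with a position and a score for each peak. No value per library is given, so no peak carries a replicate error, and the depth behind a called or uncalled region is unknown. With no untagged control, peaks due to the tagged protein and other peaks cannot be told apart.

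Notch is a membrane receptor whose intracellular part enters the nucleus on activation and acts with the DNA-binding protein Su(H) at genes transcribed by RNA polymerase II. Transfer RNA genes are transcribed by RNA polymerase III from promoter elements, the A box and the B box, that lie inside the gene itself. They are short and occur in many copies that are often grouped, and their RNA products carry amino acids to the ribosome in every cell. In their names the amino acid is followed by the anticodon, by a number for the mature tRNA and by a number for the copy, so that tRNA:Lys-TTT-2-1 and tRNA:Lys-TTT-2-2 are copies with the same mature tRNA.

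The peak list is on release 5 of the genome. Each gene was therefore moved to release 5 by 1 constant per arm, and no shift was needed on 2L. The constants were checked on the ends of protein-coding genes. With the constants, 11.1% of 16408 such ends had a peak within 500 bp. Moved a further 2 to 20 kb to either side, 6.37 to 7.01% did. In all 25 segments of 2 Mb that hold a tRNA gene, more gene ends had a peak at the constants than at the median of 6 further moves of 5 to 20 kb. A member was counted as having a peak where the gene plus or minus 500 bp overlapped a peak by at least 1 bp.

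Most tRNA genes had no peak. A peak lay within 500 bp of 17 of the 146 genes (11.6%, exact 95% binomial interval 6.93 to 18.0%), and it touched the gene itself in 8 of them. The background was 10.8% of the 20396 ends of other genes on the same arms and 4.84% of all positions of the arms. The gene table gives no strand, so a gene's start is 1 of its 2 ends. The share of other gene starts with a peak lies between 3.4% (genes with a peak at both ends) and 18.1% (genes with a peak at either end). The interval for tRNA genes includes the share of other gene ends and lies above the share of arm positions, although for the tRNA genes with no other gene end within 1000 bp it does not (7.89%, interval 2.95 to 16.4%). Intervals cover counting error only, treat genes as independent, and describe this 1 list.

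Neighbouring tRNA genes can share a peak, so genes with gaps of at most 1000 bp were joined into 93 clusters. Of these, 13 clusters had a peak within 500 bp of a member (14.0%, interval 7.66 to 22.7%). Joined within 5 kb instead, 10 of 78 clusters had one (12.8%, interval 6.32 to 22.3%). Both intervals include 10.8%, and also the 11.2% of other gene ends joined within 1000 bp (1155 of 10336). A cluster spans more sequence than a single gene end or position. Cluster shares, here and by arm, are therefore not like for like with those of single gene ends or with the 4.84% of arm positions. Near the edge of the window, tRNA:Ser-GCT-2-4 (221 bp from its peak), tRNA:Phe-GAA-1-2 (352 bp) and tRNA:Ser-GCT-2-3 (492 bp) were the farthest genes inside it. The nearest outside were tRNA:Leu-TAG-1-1 (600 bp), tRNA:Thr-AGT-1-1 (762 bp) and tRNA:Val-CAC-2-4 (824 bp).

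The peaks at tRNA genes lay almost entirely on 3R. There, 16 of 79 genes (20.3%, interval 12.0 to 30.8%) and 12 of 48 clusters (25.0%, interval 13.6 to 39.6%) had a peak, against 9.04% of the ends of other genes and 4.53% of positions on that arm. On 2L none of the 41 genes (interval 0.0 to 8.6%) and none of the 30 clusters (0.0 to 11.6%) had one, against 11.4% of other gene ends and 4.45% of positions. On X it was 1 of 26 genes (3.85%, interval 0.0973 to 19.6%) and 1 of 15 clusters, against 12.6% of other gene ends and 5.63% of positions. The interval of the 2L genes lies below the share of other gene ends on 2L, but that of the 2L clusters, each counted once, includes it. Without the histone genes, which form a repeated array on 2L, 8.62% of other gene ends on 2L had a peak, a value at the upper bound of the interval of the 2L genes. With joining within 5 kb, 3R had 9 of 38 clusters with a peak (23.7%, interval 11.4 to 40.2%), 2L had 0 of 25 and X had 1 of 15. The difference between arms was not tested.

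Distances to the nearest peak were measured for tRNA genes and for other gene ends. The median distance from a tRNA gene to the nearest peak was 12.3 kb (95% interval 9.86 to 15.3 kb), against 10.5 kb for the ends of other genes, which lies in that interval. More than 5 kb from any peak were 111 of the 146 genes (76.0%, interval 68.3 to 82.7%) and 67.6% of other gene ends, which lies just below that interval. Counted by cluster, 24.7% lay within 5 kb of a peak (interval 16.4 to 34.8%), and that interval includes the 32.4% of other gene ends. The median was 12.0 kb on 2L (interval 7.6 to 19.0 kb), 9.86 kb on 3R (6.87 to 12.3 kb) and 23.9 kb on X (18.2 to 46.4 kb). Other gene ends had medians of 11.8 kb on 2L, 11.4 kb on 3R and 8.05 kb on X. On X the interval for tRNA genes lies wholly above the median of other gene ends. Of the 26 genes there, 14 sit in 1 stretch, so that median rests on few separate places. With each of the 15 clusters on X counted once, the median was 38.5 kb (interval 14.8 to 58.7 kb), also above 8.05 kb. Cluster medians were 12.6 kb on 2L (7.6 to 18.0 kb) and 9.33 kb on 3R (4.26 to 12.3 kb). Both of these intervals include the median of other gene ends on the same arm.

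**Figure D1:**
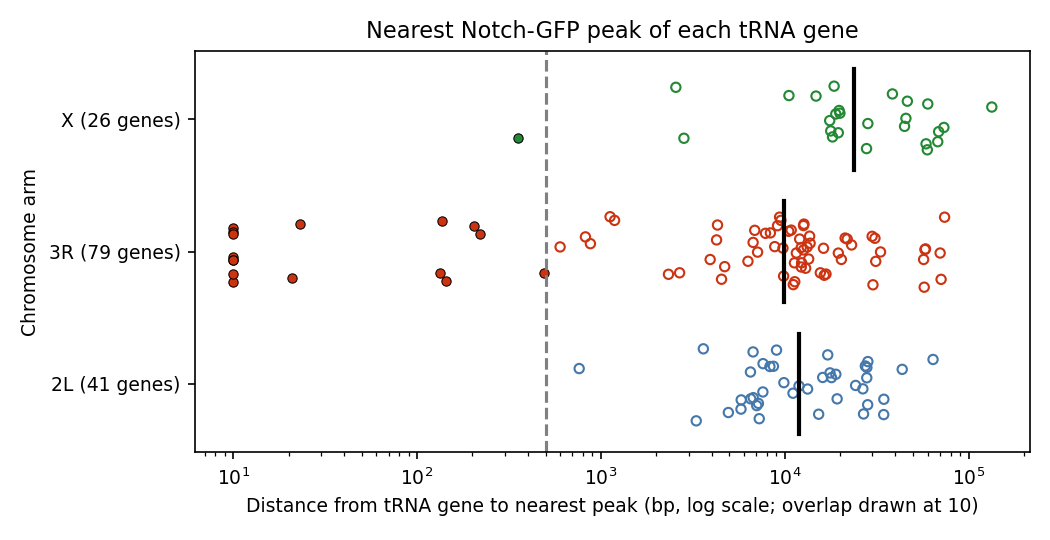
Distance in bp (log scale) from each of the 146 tRNA genes to its nearest peak, by chromosome arm, with 1 point per gene. Filled points lie within 500 bp (dashed line), genes touched by a peak are drawn at 10 bp, and black bars are medians (12.0 kb on 2L, 9.86 kb on 3R and 23.9 kb on X); 16 of the 17 filled points are on 3R.

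At wider distances the share of tRNA clusters lay at times below and at times above that of other gene ends, which its interval included at each distance from 0.25 to 50 kb. Within 2 kb of a peak were 17.2% of clusters (interval 10.2 to 26.4%), 18.8% of other gene ends and 11.6% of positions. Within 5 kb they were 24.7% of clusters (16.4 to 34.8%), 32.4% of other gene ends and 22.7% of positions. Within 20 kb they were 72.0% (61.8 to 80.9%) against 67.0% of other gene ends, and within 50 kb 90.3% (82.4 to 95.5%) against 87.9%. Between 1 and 2 kb no cluster was added, since 16 of 93 had a peak within either distance. Taken singly, the arms went different ways. On 2L the interval lay below the share of other gene ends within 5 kb (2.11 to 26.5% against 30.5%). On X it lay below within 10 kb (1.66 to 40.5% against 55.4%). On 3R it lay above within 0.5 kb (13.6 to 39.6% against 9.04%). At some other distances the intervals of single arms included that share, and no difference was tested.

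**Figure D2:**
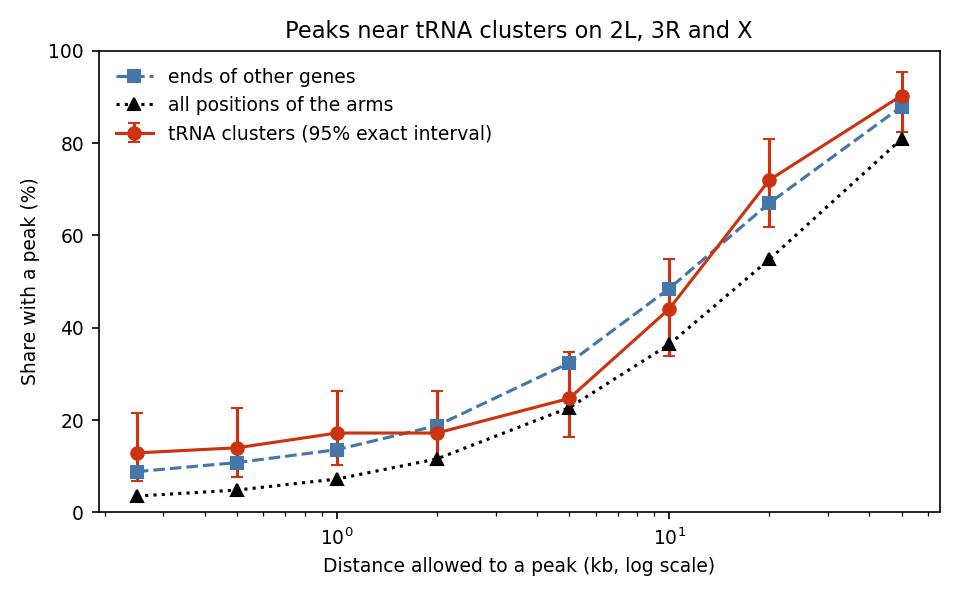
Share (%) of the 93 tRNA clusters, of the ends of other genes and of all positions of 2L, 3R and X that lie within a given distance (kb, log scale) of a peak. Bars are exact 95% binomial intervals for the clusters; they include the share of other gene ends at 0.5 kb (14.0% against 10.8%), at 5 kb (24.7% against 32.4%) and at 10 kb (44.1% against 48.5%).

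The highest scored locus was a group of 4 serine tRNA genes. They read the codons paired with anticodon GCT, and all 4 (tRNA:Ser-GCT-2-3, 2-4, 1-1 and 2-5) lay within 500 bp of 1 peak on 3R from 18222823 to 18223543 (release 5), which is 721 bp wide. Its score was 198.7, rank 126 of the 4198 peaks. The peak covered tRNA:Ser-GCT-1-1 and tRNA:Ser-GCT-2-5, and passed 221 bp from tRNA:Ser-GCT-2-4 and 492 bp from tRNA:Ser-GCT-2-3. No end of another gene lay within 500 bp of this peak. The nearest one to these tRNA genes belonged to CG13857 and was 2424 bp or more away.

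The 4 lysine tRNA genes tRNA:Lys-TTT-2-1 to 2-4 formed the locus with the widest peaks. They lie beside the Hox gene Scr, which specifies identity in the labial and first thoracic segments, and alternate with the 2 genes for 7SL RNA, the RNA of the signal recognition particle and also a product of RNA polymerase III. The peak spanning 2644875 to 2647095 on 3R scored 166.9 (rank 225) and covered tRNA:Lys-TTT-2-1, tRNA:Lys-TTT-2-2 and 7SLRNA:CR42652. The other, spanning 2647282 to 2648662, scored 166.6 (rank 229), covered tRNA:Lys-TTT-2-3 and 7SLRNA:CR32864, and ended 23 bp from tRNA:Lys-TTT-2-4. The widths were 2221 and 1381 bp. The gene order reads the same from both sides (Lys, 7SL, Lys, Lys, 7SL, Lys), and the scores of both peaks were nearly equal. How reads that match several copies were treated is not given in the sources used here. These genes count as 3 of the 13 clusters with a peak, although they share 2 peaks. Without them, 11.1% of clusters had one.

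**Figure D3:**
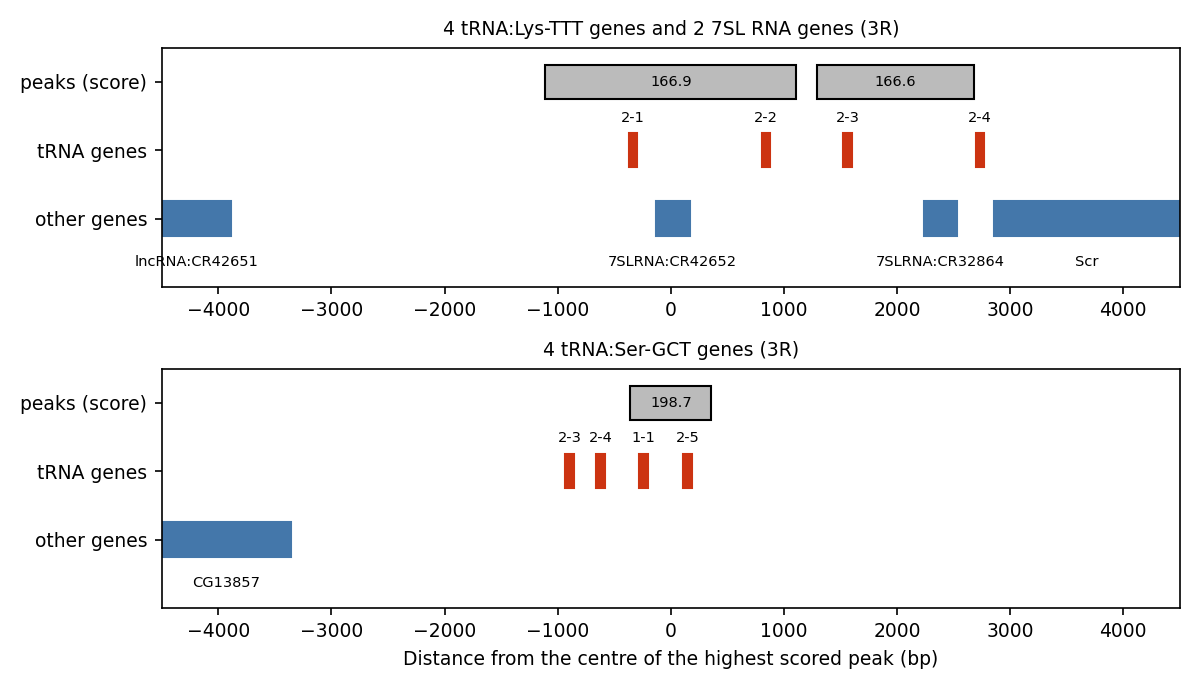
Peaks (grey, with the authors' score), tRNA genes (red, labelled by mature tRNA and copy number) and other genes (blue) at the lysine tRNA and 7SL RNA locus and at the serine tRNA locus, both on 3R. The x axis is the distance in bp from the centre of the highest scored peak; 2 peaks of 166.9 and 166.6 span the lysine locus, and 1 peak of 198.7 covers 2 of the 4 serine tRNA genes.

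Of the 17 tRNA genes with a peak, 4 lie inside the span of a larger gene: tRNA:Gly-TCC-1-1, given with the remaining loci, and 3 further ones. An arginine tRNA gene, tRNA:Arg-TCG-2-4, lies within pyd, which encodes a junction scaffold protein, and was 134 bp from a peak that spans 4688861 to 4689534 on 3R and scored 195.3 (rank 136). The nearest end of another gene was 35.7 kb from this tRNA gene. Its cluster mate tRNA:Arg-TCG-2-3 was 1187 bp from the same peak. The threonine tRNA gene tRNA:Thr-AGT-1-4, inside CG31279, was covered by a peak spanning 12257090 to 12257893 that scored 122.3 (rank 448). A lower scored peak (12258114 to 12258422, score 12.7) also fell in its window. The proline tRNA gene tRNA:Pro-TGG-1-5, inside the piRNA pathway gene qin, touched a peak (14454231 to 14454634, also on 3R) that scored 51.7.

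The remaining loci had peaks that scored from 6.82 to 59.8. Of the leucine tRNA genes, tRNA:Leu-CAA-2-3 lay 136 bp from a peak (3R from 19427313 to 19427812, score 59.8, within the top 25% of these arms), and tRNA:Leu-TAG-1-2 was touched by one (3R from 26074365 to 26074878, score 37.7). The valine tRNA gene tRNA:Val-CAC-2-3 was 21 bp from a peak (3R from 3297416 to 3297761, score 29.4). The glycine genes tRNA:Gly-TCC-1-1 and tRNA:Gly-TCC-1-2 each had a narrow peak at 144 and 205 bp, with scores of 9.77 (rank 3889) and 6.82 (rank 4196 of 4198). The only member on X with a peak was the phenylalanine gene tRNA:Phe-GAA-1-2, which was 352 bp from a peak (X from 6637492 to 6638152, score 14.0) and 233 bp from the ribosomal protein gene RpL17.

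In all, 13 different peaks lay at tRNA genes. Their median score was 51.7 (95% interval 12.7 to 167.0), with a range of 6.82 to 198.7, against a median of 25.0 (23.6 to 26.3) for the 2222 other peaks of the 3 arms. Of the 13, 6 (46.2%, interval 19.2 to 74.9%) scored in the top 25% of the peaks of these arms, that is above 58.8, against 24.8% of the other peaks. The intervals of both comparisons include the value of the other peaks, so the scores at tRNA genes were not told apart from those elsewhere. Their median width was 514 bp (309 to 804 bp), against 496 bp (480 to 519 bp). Ends of genes that are not tRNA genes lay within 500 bp of 10 of the 13 peaks, and the 3 without one were those at the serine group, at tRNA:Arg-TCG-2-4 and the stronger one at tRNA:Thr-AGT-1-4. From the middle of the 17 genes to the centre of their peak the median distance was 360 bp (range 151 to 893 bp).

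**Figure D4:**
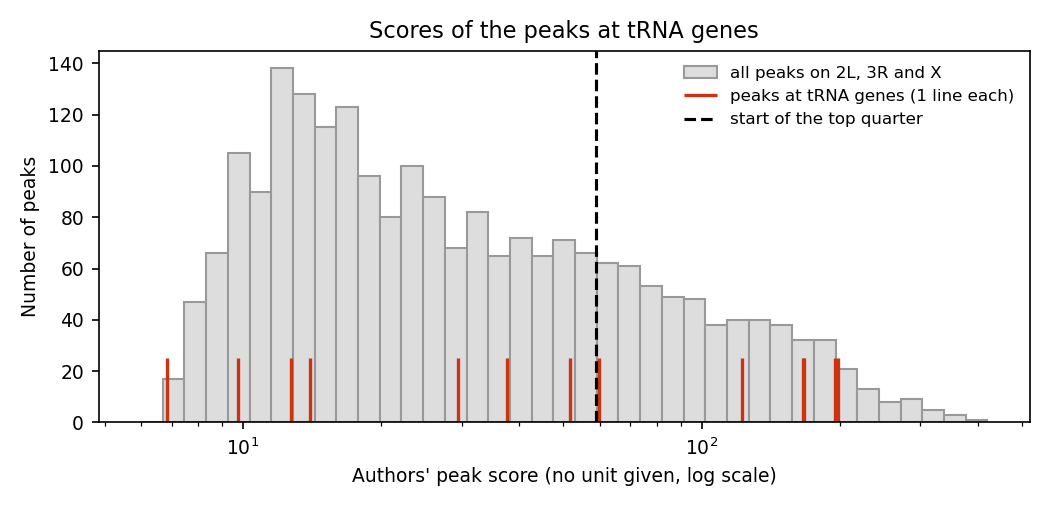
Number of peaks by the authors' score (log scale, no unit given) for all 2235 peaks on 2L, 3R and X, in grey. Red lines mark the 13 peaks at tRNA genes; they run from 6.82 to 198.7, and 6 lie above 58.8 (dashed line), where the top 25% begin.

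The members were also divided by their place among other genes. Among the 70 tRNA genes with an end of another gene within 1000 bp, 11 had a peak (15.7%, interval 8.11 to 26.4%). Among the 76 without one, 6 did (7.89%, interval 2.95 to 16.4%), in 3 clusters. Inside the span of another gene 4 of 58 had a peak (6.9%, interval 1.91 to 16.7%), and outside 13 of 88 (14.8%, 8.11 to 23.9%). The intervals overlap in both comparisons, and neither difference was tested. The interval of the 76 genes includes the 4.84% of arm positions, and so does that of the 44 clusters without an end of another gene within 1000 bp of any member (6.82%, interval 1.43 to 18.7%).

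By amino acid, the counts can be read against the 11.6% of all tRNA genes and 10.8% of other gene ends. Peaks were spread over 9 of the 13 families with 5 or more genes. Lysine had 4 of 6 genes with a peak, all at the 7SL locus. Serine had 4 of 16, all in the group of 4, followed by glycine with 2 of 12 and leucine with 2 of 7. Arginine (1 of 18), proline (1 of 12), threonine (1 of 11), valine (1 of 9) and phenylalanine (1 of 6) had a single gene each. No gene had a peak among the 13 for aspartate, the 11 for alanine, the 10 for glutamine and the 10 for tyrosine. The 5 families with fewer genes had 5 genes in all, none with a peak. Because the lysine and serine genes share peaks, these counts stand for few separate places.

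**Figure D5:**
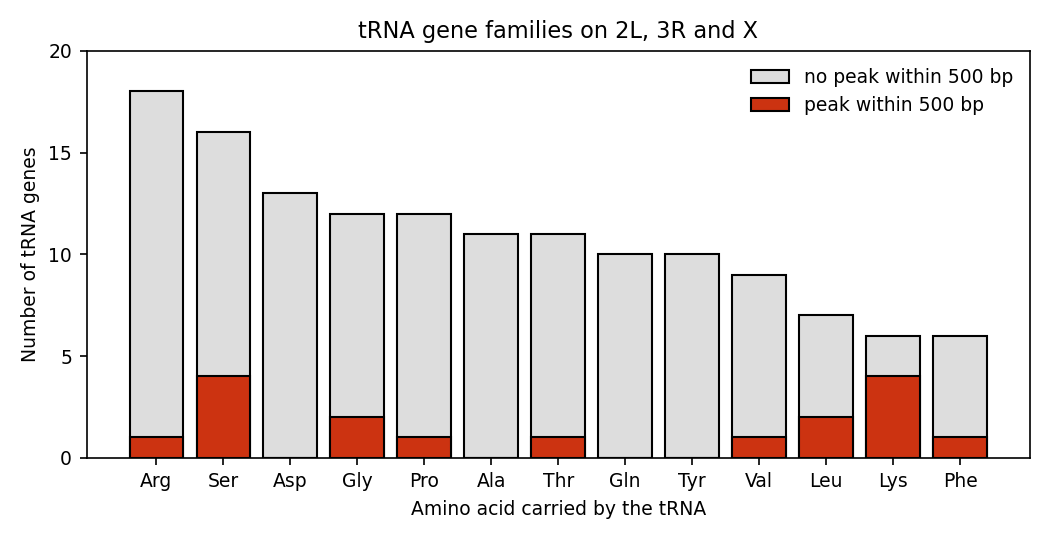
Number of tRNA genes on 2L, 3R and X by the amino acid that the tRNA carries, for the 13 families with 5 or more genes. Red is the part with a peak within 500 bp; lysine has 4 of 6 and serine 4 of 16, and aspartate, alanine, glutamine and tyrosine have none.

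Copies of the same mature tRNA were compared for whether they had a peak, against the 11.6% of all tRNA genes. There were 23 sets of 2 or more copies on the 3 arms, with 114 genes. In 9 sets some but not all copies had a peak, in 14 sets none had, and in 0 sets all had. These counts are a description, and no difference between sets was tested. Since the treatment of reads that match several copies is not given, a difference between copies cannot be read as one of binding. Of the 5 copies of tRNA:Lys-TTT-2, 4 had one, and tRNA:Lys-TTT-2-5 was 9.86 kb from the nearest peak. Of the 5 copies of tRNA:Ser-GCT-2, 3 had one, and tRNA:Ser-GCT-2-1 and 2-2 lay 12.7 and 6.87 kb away. Of the 6 copies of tRNA:Thr-AGT-1, only tRNA:Thr-AGT-1-4 had one, and tRNA:Thr-AGT-1-3 was 6.31 kb from that same peak. The 11 copies of tRNA:Asp-GTC-1, the 10 of tRNA:Ala-AGC-2 and the 9 of tRNA:Tyr-GTA-1 had none.

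Of the 4 clusters with 4 or more genes, 1 had a peak, the serine group. With 4 clusters the interval (0.631 to 80.6%) includes the 14.0% of all clusters. The largest, 7 arginine and serine tRNA genes on X (tRNA:Arg-TCG-2-1 to tRNA:Arg-TCG-3-4), lay 17.6 to 20.0 kb from the nearest one. A cluster of 6 on 3R (tRNA:Asn-GTT-1-10 and 5 copies of tRNA:Arg-ACG-1) lay 12.3 to 13.7 kb away, and a cluster of 4 alanine and proline genes on 3R 29.9 to 31.3 kb away. Of the 30 clusters with 2 or 3 genes, 3 had a peak, and of the 59 single genes, 9 did.

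A further list held 10 genes on the 3 arms for other small structural RNAs (U6, U6atac, 7SK, 7SL, RNase P and RNase MRP RNA), many of them products of RNA polymerase III. Of these, 3 had a peak within 500 bp (interval 6.67 to 65.2%): both 7SL RNA genes and snRNA:7SKa, one of the genes for the 7SK RNA that holds back the elongation factor P-TEFb. The peak at snRNA:7SKa (3R from 3300240 to 3300801, score 26.6) was also the one nearest to tRNA:Val-CAC-2-4, at 824 bp. The 3 genes snRNA:U6:96Aa, 96Ab and 96Ac for the spliceosomal U6 RNA lay 12.1 to 13.2 kb from a peak. RNaseP:RNA, the RNA of the enzyme that trims the 5′ ends of tRNAs, lay 707 bp from one (score 160.3). Among other short genes, in the same window, 2 of 22 other snRNA genes (9.09%), 6 of 123 snoRNA and scaRNA genes (4.88%) and 16 of 167 miRNA genes (9.58%) had a peak. Many of these also lie side by side. Counted by cluster, the numbers with a peak were 2 of 18, 5 of 56 and 13 of 133. In windows nearer in length to those of these short genes, the share was 10.8% of other gene ends and 4.84% of arm positions. For all other genes of the 3 arms, taken whole plus or minus 500 bp, it was 21.2%. Those whole-gene windows differ in length from those of tRNA genes and of the short genes listed here.

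The genes that make and load tRNAs were counted by either end, against a background of 18.1%. Of the 9 genes for subunits and factors of RNA polymerase III on these arms, 1 had a peak within 500 bp of an end, which was Polr3F (score 10.5); the interval of 0.281 to 48.2% includes the background. Trf, which takes the place of the TATA-binding protein at these promoters in flies, lay 8.91 kb from a peak, and Brf, a subunit of the factor TFIIIB, had none within 5.38 kb of an end. Of 17 genes for aminoacyl-tRNA synthetases, the enzymes that load amino acids onto tRNAs, 9 had one (52.9%, interval 27.8 to 77.0%), an interval that lies above 18.1% and overlaps that of the polymerase list. The difference between both lists was not tested. They were ThrRS (score 105.7) and AspRS-m (66.7) on 2L, ArgRS-m (64.7), TrpRS (31.1), GluProRS (13.0), beta-PheRS (82.0) and GlnRS (210.6, rank 100) on 3R, and ArgRS (54.4) and HisRS (67.5) on X. The suffix -m marks enzymes of the mitochondrion, of which 2 of 4 had a peak, against 7 of 13 others. Without a peak were SerRS, LeuRS, AlaRS and AsnRS on 2L, MetRS-m and SerRS-m on 3R, and alpha-PheRS and LysRS on X, at 1.52 to 41.9 kb. Synthetases and tRNA genes of the same amino acid could match or differ. LysRS and SerRS had no peak, at 4.64 and 41.9 kb, while the lysine and serine tRNA groups carried peaks that scored 166.6 to 198.7. ArgRS and ThrRS had a peak, and so did tRNA:Arg-TCG-2-4 (score 195.3) and tRNA:Thr-AGT-1-4 (score 122.3). GlnRS had one, while no glutamine tRNA gene did. These examples were picked after their values were seen, and the relation was not tested. A peak at an end can also lie at the end of an adjoining gene, which was not separated here.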

How the data were processed

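ChIP and input DNA were sequenced, with 2 libraries each; the deposited result is 1 peak list. Per the file headers it is on FlyBase release 5 and names MACS as the source. The submitters' processing notes list MACS2, BWA and CASAVA (1.7.0.2 and 1.7.0.3) but no settings. Threshold, use of the input and pooling of replicates: not given in the sources used here. The score of each peak is the authors' deposited score, whose statistic and scale are not given, so it was only ranked and summarised by medians. Depth is unknown.

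Genes came from a RefSeq table of release 6, moved to release 5 by 1 constant per arm, which ignores local changes between the releases. The table has no strand, so planned comparisons with gene starts used both ends of each gene, and distances have no direction. In all, 10198 other genes lay inside the arms; 95 fell outside by moved position and were left out. The length of an arm is the last base of its last peak, and the share of positions was counted over every base with a window for a gene of 73 bp. Motifs were not searched and no sequence was used here. Shares carry exact (Clopper-Pearson) 95% binomial intervals, medians order-statistic intervals; no p-value was computed.

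The text names the 10 clusters with the highest scored peak, each cluster of 4 or more genes, and families of 5 or more genes; other loci with a peak, and the copies and stretches, were named after their values were seen. The members and gene lists were chosen with earlier results of these data known. Windows, peak sets, joining distances, arms and moved positions were varied. Overlap, position share and shift check were tested on simulated lists. Python 3.11.15, numpy 2.4.6, pandas 2.3.3, scipy 1.17.1 and matplotlib 3.10.9 were used.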

Additional observations from a re-analysis of the deposited data

How the results depend on the processing

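Of 47 values computed under alternatives, 29 stayed within the 95% interval of the reported value and 18 left it. These alternatives include positions moved on purpose, other windows for arm positions and the bounds for either and both ends. The tally is therefore no measure of how stable the results are. The share of tRNA genes with a peak depends on 3R: without that arm it was 1.49%, and the share of clusters was 2.22%. Without 2L or X these shares were 13.3 to 16.2% and 15.4 to 20.6%. The gene body alone gave 5.48%, beside 5.48% of other gene ends at that setting. A gene end is a single base there and a tRNA gene is longer, so these shares are not like for like. With positions moved by -10, -5, -2, 2, 5, 10 and 20 kb the share was 4.11%, 5.48%, 4.79%, 3.42%, 1.37%, 3.42% and 2.74%. Moved by -20 kb it was 11.0%, since 8 of the 26 genes on X then fell at peaks. Clusters with no other gene end within 1000 bp had a share of 6.82%. For other gene ends the share was 9.8% without histone genes, 18.1% for either end and 3.4% for both ends. For arm positions it was 3.55% in windows of 250 bp, 7.24% in windows of 1000 bp and 2.82% with the 2099 higher scored peaks. Without 3R, tRNA genes lay a median of 18.0 kb from a peak, against 12.3 kb. The median score of the peaks at tRNA genes ranged from 43.9 to 59.8 over 5 alternatives; without 3R only 1 peak is left, so no median was computed. No paired analysis was possible because replicates have no values of their own in the peak list, which also means that none could be left out. At an unknown depth, a tRNA gene without a peak is one not called, not one shown to be unbound.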

Other observations

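Between neighbouring peaks there were 4 stretches with 6 or more tRNA genes; stretches were defined by their lack of a peak and picked after their values were seen. On 3R, 18 members in 10 clusters, made up of alanine, proline, valine and threonine tRNA genes (tRNA:Val-CAC-1-1 to tRNA:Ala-AGC-2-10), spread over 50.5 kb within a stretch of 65.4 kb between neighbouring peaks. The flanking peaks ran from 13440795 to 13441152 (score 45.6) and from 13506034 to 13506676 (score 22.8), and the members were 2.33 to 31.3 kb from the nearest of them. On X, 14 arginine and serine tRNA genes in 5 clusters (tRNA:Arg-TCG-2-1 to tRNA:Ser-AGA-2-2) spread over 103.0 kb within a stretch of 167.0 kb, at 17.6 to 73.4 kb from a peak. The nearest other genes in the table include copies of Stellate. A further one on 3R, of 54.8 kb, holds the cluster of tRNA:Asn-GTT-1-10 and tRNA:Arg-ACG-1 genes. On 2L, 5 glutamine and 1 glycine tRNA genes in 4 clusters lay within a stretch of 65.3 kb.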
